A study of Mus musculus with 12 samples.

Results

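Acute phase plasma proteins are the blood proteins that the liver makes in changed amounts during inflammation, and 10 mouse genes that encode such proteins were followed in single-cell transcriptomes of the late fetal and newborn liver. They were Saa1, Saa2 and Saa3 (serum amyloid A), Hp (haptoglobin, which binds free haemoglobin), Hpx (hemopexin, which binds free haem), Orm1 and Orm2 (orosomucoids, abundant plasma glycoproteins), Itih4 (a member of the inter-alpha-trypsin inhibitor heavy chain family), Lbp (lipopolysaccharide-binding protein) and Crp (C-reactive protein). The genes were chosen by their symbols, and all 10 were present among the 31053 genes listed for the fetal stage (embryonic stage E16.5) and the 22597 genes listed for postnatal day 3 (P3).

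In the adult liver, interleukin 6 acting through STAT3 and interleukin 1 acting through NF-kB and C/EBP factors switch these genes on in hepatocytes. Serum amyloid A is the textbook reactant of the mouse, in which C-reactive protein responds weakly. Haptoglobin and orosomucoid are also stored in the granules of neutrophils. The fetal liver is in addition the main site of blood formation, so that hepatocytes are there surrounded by erythroid cells and by maturing myeloid cells.

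Whole livers of mice wild-type (Jag1+/+), heterozygous (Jag1Ndr/+) or homozygous (Jag1Ndr/Ndr) for Nodder, an allele of Jag1, bred from heterozygous parents, were dissociated with enzymes, cleared of dead cells and profiled by droplet-based sequencing. The labels listed 2 individuals for each genotype and stage, 12 samples in all. Jag1 encodes a Notch ligand in which Nodder swaps an amino acid, and transcript counts therefore do not check the genotype labels. Homozygous P3 pups were picked by their jaundice, and TrypLE was added to the digestion at E16.5 only, per the labels' protocols. The 12 samples came from fewer libraries. At E16.5, replicate 2 of Jag1+/+ and replicate 2 of Jag1Ndr/+ held the same values throughout, and this single shared library entered each comparison once. This left 5 libraries at E16.5, the others being Jag1+/+ replicate 1, Jag1Ndr/+ replicate 1 and Jag1Ndr/Ndr replicates 1 and 2. The P3 matrices shared up to 100% of their barcodes and held 4 libraries. Libraries A and B were present under labels of different genotypes, so their genotype is unclear. Barcodes of library C stood under Jag1Ndr/Ndr alone, and those of library D under Jag1Ndr/+ alone. Stage could be compared over all 9 libraries, and genotype was tested at E16.5 only.

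The libraries held 15024 to 29034 passing barcodes and 72777843 to 253187351 molecular counts (UMIs) on them, with median UMI counts per barcode of 5325 to 9256 at E16.5 against 2961 to 6235 at P3. Levels are given as CPM, the UMIs of a gene per 1000000 UMIs of a cell class in a library. They are compared between classes and stages and not between genes. Cells were clustered without the 10 genes, and clusters were named from markers of each cell type, as in hepatocyte-like. All 13 hepatocyte markers were detected in the hepatocyte-like cells of both stages, with a summed level of 105168 to 157820 CPM at E16.5 against 76033 to 112793 CPM at P3. Stage cannot be told apart from the digestion, from the gene list, from the version of the 10x software or from depth, since all of these changed with it. Erythroid RNA was also uneven, with 12 erythroid markers making up 4.75% to 7.72% of the UMIs of hepatocyte-like cells at E16.5 and 0.709% to 1.89% at P3. Its part in the results was not tested.

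The 3 serum amyloid genes lie close together on chromosome 7 of GRCm38, with Saa3 at 46711998 to 46715700 and Saa1 at 46740497 to 46742980 on the minus strand and Saa2 at 46751790 to 46754313 on the plus strand. Orm1 (63344560 to 63348163) and Orm2 (63362449 to 63365878) are neighbours on the plus strand of chromosome 4. The remaining genes are scattered, with Hpx on chromosome 7 (105591613 to 105600137, minus), Hp on chromosome 8 (109575128 to 109579172, minus), Itih4 on chromosome 14 (30886476 to 30902353, plus), Lbp on chromosome 2 (158306493 to 158332852, plus) and Crp on chromosome 1 (172698055 to 172833031, plus). All 10 are annotated as protein-coding in GENCODE M21. Upstream sequences of 7 of them were taken from RefSeq (GRCm38.p6), and those of Hp, Orm1 and Lbp were not analysed here. The 5 that carried a match to the C/EBP letters TTGCNNAA on either strand are shown, because C/EBP factors are the classical activators of these genes and because 4 of the 5 belong to genes whose RNA was near 0 or low in these livers. Each run covers the bases from 250 to 51 before the transcript start, 5′ to 3′ along the gene's strand, and the capitals mark the match. They lie at chr7:46743031-46743230 (minus strand) for Saa1, chr7:46751583-46751782 (plus) for Saa2, chr7:46715727-46715926 (minus) for Saa3, chr4:63362199-63362398 (plus) for Orm2 and chr7:105600167-105600366 (minus) for Hpx.
Saa1: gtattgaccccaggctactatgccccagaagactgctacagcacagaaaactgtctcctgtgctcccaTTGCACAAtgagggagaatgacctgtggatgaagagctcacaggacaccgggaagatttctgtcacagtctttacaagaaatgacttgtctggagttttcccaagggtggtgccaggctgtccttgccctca
Saa2: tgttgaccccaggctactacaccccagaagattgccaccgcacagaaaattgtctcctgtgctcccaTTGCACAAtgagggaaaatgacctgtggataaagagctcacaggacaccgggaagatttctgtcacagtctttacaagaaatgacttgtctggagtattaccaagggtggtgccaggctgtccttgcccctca
Saa3: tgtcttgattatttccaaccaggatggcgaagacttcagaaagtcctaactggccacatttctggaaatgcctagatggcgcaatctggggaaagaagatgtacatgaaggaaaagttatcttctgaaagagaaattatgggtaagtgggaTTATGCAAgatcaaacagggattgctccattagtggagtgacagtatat
Orm2: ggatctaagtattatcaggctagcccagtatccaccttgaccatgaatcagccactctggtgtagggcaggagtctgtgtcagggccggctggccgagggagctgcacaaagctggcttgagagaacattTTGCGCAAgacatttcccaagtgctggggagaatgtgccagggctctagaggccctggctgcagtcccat
Hpx: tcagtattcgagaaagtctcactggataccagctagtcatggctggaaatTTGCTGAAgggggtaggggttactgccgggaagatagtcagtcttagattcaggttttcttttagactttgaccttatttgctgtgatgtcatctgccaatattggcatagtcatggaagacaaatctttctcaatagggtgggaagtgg
The match lay 182 to 175 bases before the start in Saa1, 183 to 176 in Saa2, 99 to 92 in Saa3, 120 to 113 in Orm2 and 200 to 193 in Hpx. Among all 32851 RefSeq promoter windows of the same length, 9.56% held such a match. The STAT letters TTCNNNGAA were present in 1 of the 7 windows (Itih4) and in 7.02% of all windows. Letters of an NF-kB motif (4.11% of all windows) and of an HNF1 motif (0.131%), also searched on both strands, were found in 0 of the 7 windows. The 250 bases upstream of Saa1 and Saa2 were 95.6% identical over their aligned positions, with 11 mismatches. Such matches describe letters only and are no evidence of binding. The 3' ends of the serum amyloid genes shared 0 of their 90-base windows with their relatives, whereas Orm1 and Orm2 each shared 67 of 411 windows (16.3%) with other orosomucoid genes, so that Orm1 counts are less certain.

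Between E16.5 and P3, hepatocyte-like cells rose from a low to a very high Hp level, with smaller rises of Hpx, Lbp, Itih4 and Crp, while Saa3 fell and Saa1, Saa2, Orm1 and Orm2 were at or near 0 at both stages. Of the 10 genes, 6 passed the filter on low counts in these cells and all 6 were called, 5 higher and 1 lower at P3, by the quasi-likelihood test of edgeR with Benjamini-Hochberg adjustment over all genes and classes (adjusted p under 0.05). The background was wide, because 43.7% of the 9759 genes tested in these cells were called, 22.1% as higher and 21.6% as lower at P3. In 4 of the 6 genes the libraries of the stages did not overlap, against 38.8% of all genes tested. The class held 87, 210, 129, 99 and 137 cells in the E16.5 libraries (in the order Jag1+/+ replicate 1, shared, Jag1Ndr/+ replicate 1, Jag1Ndr/Ndr replicates 1 and 2, kept throughout) and 272, 160, 49 and 92 cells in P3 libraries A to D.

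Hp, the haemoglobin scavenger, measured 241, 121, 61.8, 166 and 146 CPM in the E16.5 libraries and 5218, 6522, 3297 and 4521 CPM in P3 libraries A to D. Every P3 library was therefore far above every E16.5 library, although the E16.5 libraries themselves differed widely. The means were 147 ± 65.4 CPM (SD, n = 5) and 4889.5 ± 1347 CPM (SD, n = 4). The log2 fold change was 5.33 (adjusted p = 5.9e-08, SE 0.342, edgeR with Benjamini-Hochberg adjustment). Cells were also thinned to 2000 UMIs, leaving out shallower ones. This kept all hepatocyte-like cells at E16.5 but 155 of 272, 81 of 160, 49 of 49 and 58 of 92 in P3 libraries A to D, so that the thinned P3 shares describe the deeper cells only. Of these cells, 10.9% to 41.4% held an Hp UMI at E16.5 and 92.3% to 98.3% at P3 (55.8% to 88.5% and 89.0% to 100.0% without thinning). Erythroid-like cells, which should lack the transcript, were kept in full at E16.5 and to 6390 of 6718, 5342 of 5658, 6606 of 6606 and 6440 of 8015 in P3 libraries A to D. Thinned, they held it in 1.19% to 1.57% of cells at E16.5 and 2.78% to 10.3% at P3. The median UMI count of hepatocyte-like cells was 18127 to 27800 per library at E16.5 and 2029 to 8485 at P3, and that of erythroid-like cells 5007 to 9317 and 2668 to 5411.

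Hpx, which carries haem back to the liver, measured 721, 924, 828, 732 and 771 CPM at E16.5 and 3047, 3833, 3469 and 3910.0 CPM in P3 libraries A to D. The E16.5 libraries lay close together and all P3 libraries stood clearly above them. The means were 795 ± 83.1 CPM (SD, n = 5) and 3565 ± 395 CPM (SD, n = 4), and the log2 fold change was 2.43 (adjusted p = 5.4e-08, SE 0.154, edgeR with Benjamini-Hochberg adjustment).

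Lbp, which hands bacterial lipopolysaccharide to CD14 and TLR4, measured 142, 146, 120.4, 89.6 and 139 CPM at E16.5 and 451, 309, 275 and 288 CPM at P3. The stages did not overlap, and library A was the highest. Mean levels were 127 ± 23.3 CPM (SD, n = 5) and 331 ± 81.5 CPM (SD, n = 4), and the log2 fold change was 1.65 (adjusted p = 1.8e-05, SE 0.200, edgeR with Benjamini-Hochberg adjustment).

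Itih4 measured 655, 534, 378, 550.5 and 407 CPM at E16.5. At P3 it measured 658 and 478 CPM in libraries A and B but 1271 and 1294 CPM in libraries C and D. Library B thus lay inside the E16.5 range, A just above its highest value, and C and D well above it. The means were 505 ± 113 CPM (SD, n = 5) and 925 ± 419 CPM (SD, n = 4), and the log2 fold change was 1.14 (adjusted p = 0.0036, SE 0.274, edgeR with Benjamini-Hochberg adjustment).

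Crp measured 178, 149.98, 142, 188 and 152 CPM at E16.5 and 243, 143, 238 and 197 CPM at P3, so that library B lay among the E16.5 values. Its log2 fold change of 0.62 (SE 0.176) passed the threshold (adjusted p = 0.010, edgeR with Benjamini-Hochberg adjustment), but the call was lost without TMM scaling, where it was 0.32 with an adjusted p of 0.15. Without TMM the median log2 change of all genes moved from -0.04 to -0.34, and the share of calls that were higher at P3 moved from 50.6% to 30.7%.

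Saa3, the serum amyloid form best known from macrophages and other cells outside the liver, went the other way. It measured 29.8, 20.0, 22.2, 33.6 and 21.2 CPM at E16.5, from 65 to 91 UMIs per library, and 7.64, 0, 2.46 and 1.68 CPM in P3 libraries A to D, from 12, 0, 1 and 1 UMIs. All P3 libraries lay below all E16.5 libraries. The log2 fold change was -2.37 (adjusted p = 0.00067, SE 0.449, edgeR with Benjamini-Hochberg adjustment). In the same thinned cells, 2.02% to 10.3% of hepatocyte-like cells held a Saa3 UMI at E16.5 and 0% to 2.04% at P3 (19.05% to 33.3% and 0% to 2.57% without thinning). In erythroid-like cells the thinned share was 0.137% to 0.364% at E16.5 against 0.0155% to 0.0749% at P3.

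The classical serum amyloid genes were at or near 0. Over all kept cells, Saa1 had 3 UMIs at E16.5 and 1 at P3, Saa2 had 2 and 0, and Orm2 had 11 and 4. Within hepatocyte-like cells, Saa1 and Saa2 each had 1 UMI among 16363850 at E16.5 and 0 among 3387428 at P3. A count of 0 there allows up to 0.886 CPM at P3, which covers counting error only. Orm2 had 0 UMIs in these cells at both stages, which allows up to 0.183 CPM at E16.5. Orm1 stayed between 0.493 and 1.38 CPM in the E16.5 libraries, from 16 UMIs in all. Its P3 level was 1.27 CPM in library A, 0 in B and C and 5.05 CPM in D, from 5 UMIs, so that no change could be seen at this depth.

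**Figure D1:**
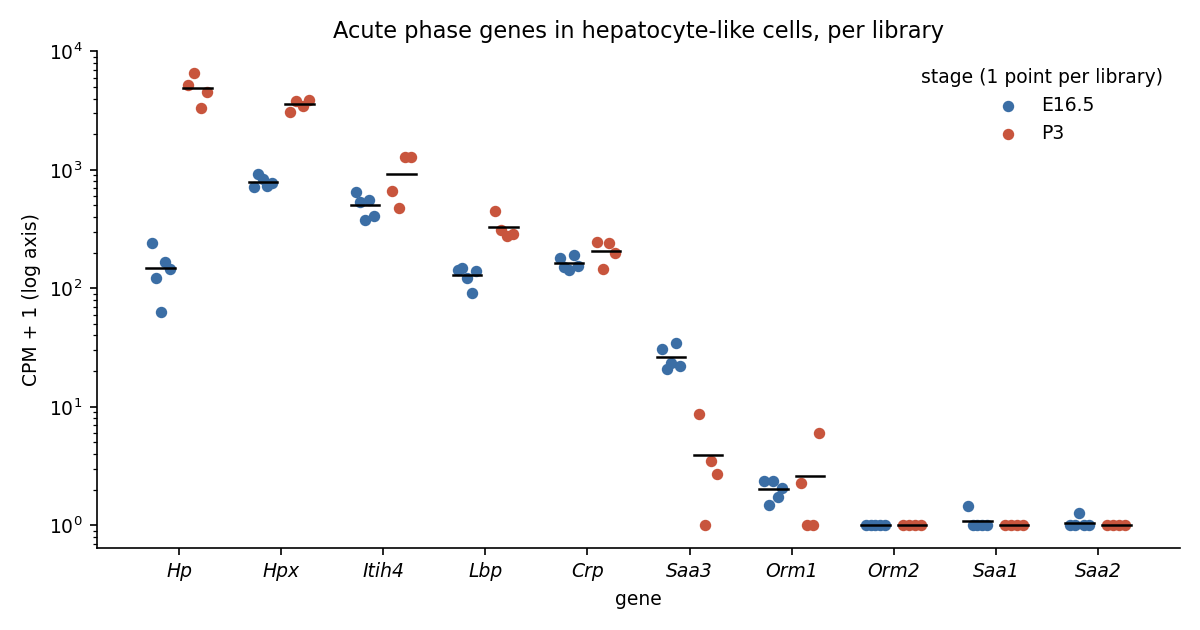
Level of each gene in hepatocyte-like cells (vertical axis, CPM + 1 on a log scale) at E16.5 (blue, 5 libraries) and P3 (red, 4 libraries), with 1 point per library and a black line at the mean. Hp rises from 61.8 to 241 CPM at E16.5 to 3297 to 6522 CPM at P3, Saa3 falls, and Saa1, Saa2 and Orm2 lie at or near 0.

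Hepatocyte-like cells also held RNA of other cells. The 11 neutrophil markers were all detected in them and summed to 1998 to 7206 CPM at E16.5 and to 791 to 8169 CPM at P3, compared with 160891 to 178014 CPM and 211625 to 272460 CPM in neutrophil-like cells. Their part in the hepatocyte values was not tested. A cluster of 2859 E16.5 cells led by Fgb and a cluster of 473 P3 cells led by Fabp1 expressed hepatocyte genes but carried 49.2% and 64.4% of their UMIs on erythroid markers, and were left unnamed by a limit of 40% set after these values were seen. Their Hp levels were 59.1 ± 35.98 CPM (SD, n = 5) and 296 ± 136 CPM (SD, n = 4). A further P3 cluster of 56 cells led by Fabp1 resembled hepatocytes most but was left unnamed because 69.2% of its barcodes were marked as doublets. It had 0.566% of its UMIs on erythroid markers and an Hp level of 869 ± 617 CPM (SD, n = 4), below that of the named class. With the 2 clusters rich in erythroid RNA kept as hepatocyte-like, the 6 genes were called in the same directions and the Hp log2 fold change was 5.14.

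Genes that work with the 10 changed in both directions in hepatocyte-like cells. Among 14 genes listed as other positive acute phase genes, 11 were called, 10 higher and 1 lower at P3. Their median log2 change was 1.53, against -0.04 for all genes tested. The serine protease inhibitor Serpina3n changed by 5.33 on the log2 scale and the complement genes C3 and C4b by 1.62 and 3.29. The protease inhibitor A2m fell by 4.93 on the log2 scale, from 547 ± 205 CPM to 16.6 ± 7.78 CPM (SD, n = 5 and 4). Of 8 genes listed as negative acute phase genes, a term for genes whose RNA drops in inflammation, 7 were called, 5 higher and 2 lower, with a median of 1.23. Fetub (4.57), Ahsg (1.69) and Apoa4 (12.50, from 0.200 to 1174 CPM) rose, and the corticosteroid-binding globulin gene Serpina6 fell by 7.44. Both lists thus held more rises than falls. Whether each listed gene, A2m and Apoa4 included, responds to inflammation in the mouse in the listed direction was not checked.

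The signalling list of 24 genes of the interleukin 6 and interleukin 1 pathways and their transcription factors had 19 tested members, of which 10 were called, 5 in each direction, with a median log2 change of 0.16. Socs3, the feedback inhibitor that STAT3 induces, fell by 3.96, from 58.5 ± 7.17 CPM at E16.5 to 4.61 ± 4.44 CPM at P3 (SD, n = 5 and 4; adjusted p = 4.8e-06, edgeR with Benjamini-Hochberg adjustment). Nfkbiz, a nuclear co-regulator of NF-kB, fell by 1.83. The interleukin 1 receptor subunit Il1rap (1.65) and the hepatocyte factor Hnf4a (0.78) rose. Without TMM scaling the list's median turned to -0.13, with 2 called as higher and 5 as lower, whereas the medians of the positive and negative acute phase lists kept their sign.

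Of 7 receptors and partners of the plasma proteins, 3 were tested in hepatocyte-like cells and 2 were called, 1 in each direction. The lipoprotein receptor Scarb1, which also binds serum amyloid A, rose by 0.98 on the log2 scale, and Cd14, the partner of Lbp, fell by 1.57. Cd14 was low at both stages, with 5.49 ± 1.52 CPM at E16.5 and 1.24 ± 1.73 CPM at P3. Its call was close to the threshold (adjusted p = 0.046, edgeR with Benjamini-Hochberg adjustment). Of 7 relatives of the 10 genes, 6 were tested and 4 called, with 3 higher and 1 lower. Apcs, a pentraxin like Crp, changed by 3.42, and the heavy chain genes Itih1 and Itih3 by 1.31 and 1.16. Saa4, the constitutive serum amyloid gene, fell by 1.19. Apcs also stands among the positive acute phase genes. All 5 lists were described by counts and medians only, beside the 43.7% of all genes called.

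Most of the Hp RNA counted was in neutrophil-like cells and not in hepatocyte-like cells. Neutrophil-like cells held a median of 79.2% of all Hp UMIs at E16.5 (lowest library 74.7%, highest 82.9%) and 66.8% at P3 (58.3% to 68.8%). Hepatocyte-like cells held 2.84% (0.939% to 3.25%) and 10.0% (4.43% to 15.5%). Monocyte-like cells held medians of 10.7% and 9.94%, and the unnamed clusters 4.06% and 10.4%. Of the 4018 unnamed Hp UMIs at E16.5, 652 were in the Fgb-led cluster that expressed hepatocyte genes. Of the 18158 at P3, the Fabp1-led clusters of 473 and 56 cells held 662 and 138. At both stages, other unnamed clusters resembled neutrophils most, and their UMIs are not in the neutrophil-like shares. Lbp had a median of 59.7% of its UMIs in neutrophil-like cells at E16.5 and 71.6% at P3. Orm1 had medians of 94.1% and 84.0% there. Most UMIs of Hpx (60.2% and 72.2%), Itih4 (59.3% and 74.5%) and Crp (60.8% and 68.0%) were in hepatocyte-like cells. These shares depend on how many cells of each class survived dissociation, and hepatocyte-like cells were 0.371% to 1.53% of kept cells, so that they describe the cell suspensions and not the organ.

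**Figure D2:**
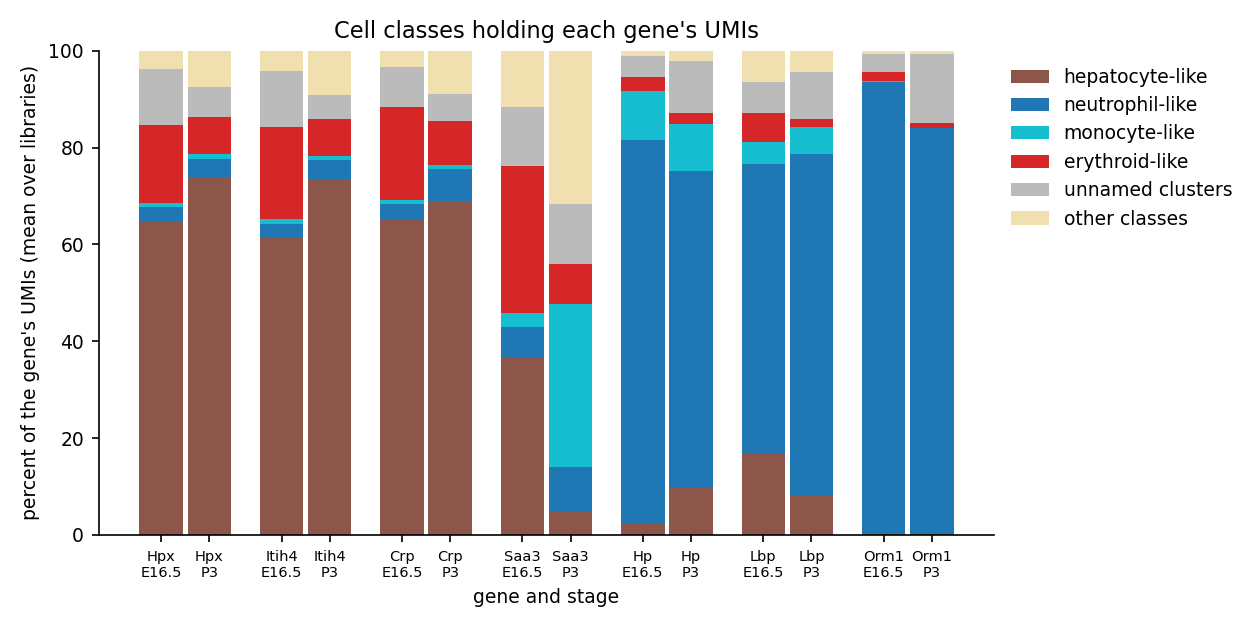
Percent of each gene's UMIs (vertical axis, mean over libraries) in the cell classes named in the legend, for 7 genes at E16.5 and P3. Neutrophil-like cells hold most UMIs of Hp, Lbp and Orm1, and hepatocyte-like cells most of Hpx, Itih4 and Crp.

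Free RNA from broken hepatocytes can reach every droplet, so each class was read beside 10 hepatocyte genes, such as Alb and Apoa1. In neutrophil-like cells these genes stood at 0.621% to 1.10% of their hepatocyte-like level at E16.5 and at 0.153% to 0.328% at P3. A gene was taken to exceed this free-RNA level in a class where its own ratio was over 3 times as high in every library with at least 20 cells of the class. This held for 28 of 200 combinations of class, gene and stage. At E16.5, Hp and Lbp exceeded it in 6 classes each (basophil and mast-like, endothelial-like, macrophage-like, megakaryocyte-like, monocyte-like and neutrophil-like) and Orm1 in neutrophil-like cells. At P3, Hp exceeded it in 4 classes, Lbp in 5, and Orm1 and Saa3 in 3 each. For Hp in mesenchymal-like cells this rested on libraries A to C, since library D held 15 such cells. Hpx, Itih4 and Crp exceeded it in no class other than hepatocyte-like at either stage. At least 10 UMIs in a class were required, which Saa1, Saa2 and Orm2 did not reach in any, so that nothing can be said of these genes. Of the 11 Orm2 UMIs at E16.5, 6 were in neutrophil-like cells. The gauge covers RNA of hepatocytes only, and RNA shed by neutrophils was not gauged. In erythroid-like cells, which should lack the transcript, Hp stood at 5.998 ± 0.929 CPM (SD, n = 5) at E16.5 and 31.0 ± 17.7 CPM (SD, n = 4) at P3, and values of Hp in other classes near these levels are read as background. At P3, the Orm1 and Saa3 entries for B-like and erythroid-like cells rested on 10 to 39 UMIs and on a hepatocyte level near 0.

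The order of Hp levels changed between the stages. At E16.5 it was neutrophil-like (724 ± 142 CPM), monocyte-like (284 ± 52.6), hepatocyte-like (147 ± 65.4), basophil and mast-like (49.4 ± 15.3) and endothelial-like (22.03 ± 11.4), followed by the macrophage-like, mesenchymal-like, megakaryocyte-like, erythroid-like and B-like classes between 5.78 and 8.82 CPM (SD, n = 5). Neutrophil-like and monocyte-like values did not overlap, nor did basophil and mast-like and endothelial-like values. All other neighbours in this order overlapped, hepatocyte-like with monocyte-like and with basophil and mast-like values, and endothelial-like with macrophage-like values, included. At P3 it was hepatocyte-like (4889.5 ± 1347), neutrophil-like (1525 ± 192), monocyte-like (951 ± 98.7), mesenchymal-like (191 ± 45.2, n = 3), basophil and mast-like (106 ± 15.7), endothelial-like (102 ± 60.2) and macrophage-like (79.8 ± 37.3), with the remaining classes between 17.3 and 35.9 CPM (SD, n = 4 unless given). The mesenchymal-like mean leaves out library D, whose 15 cells had an Hp level of 0, and with it the mean was 144 ± 103 CPM. In mesenchymal-like cells of P3 the 11 neutrophil markers summed to 1113 to 29932 CPM, and 36.8% of the cluster's barcodes were removed as doublets. The part of neutrophil RNA in their Hp level was not tested. The 3 highest classes did not overlap at P3, and the basophil and mast-like, endothelial-like and macrophage-like classes did. The basophil and mast-like class held a different mix of cells at each stage, as given below.

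**Figure D3:**
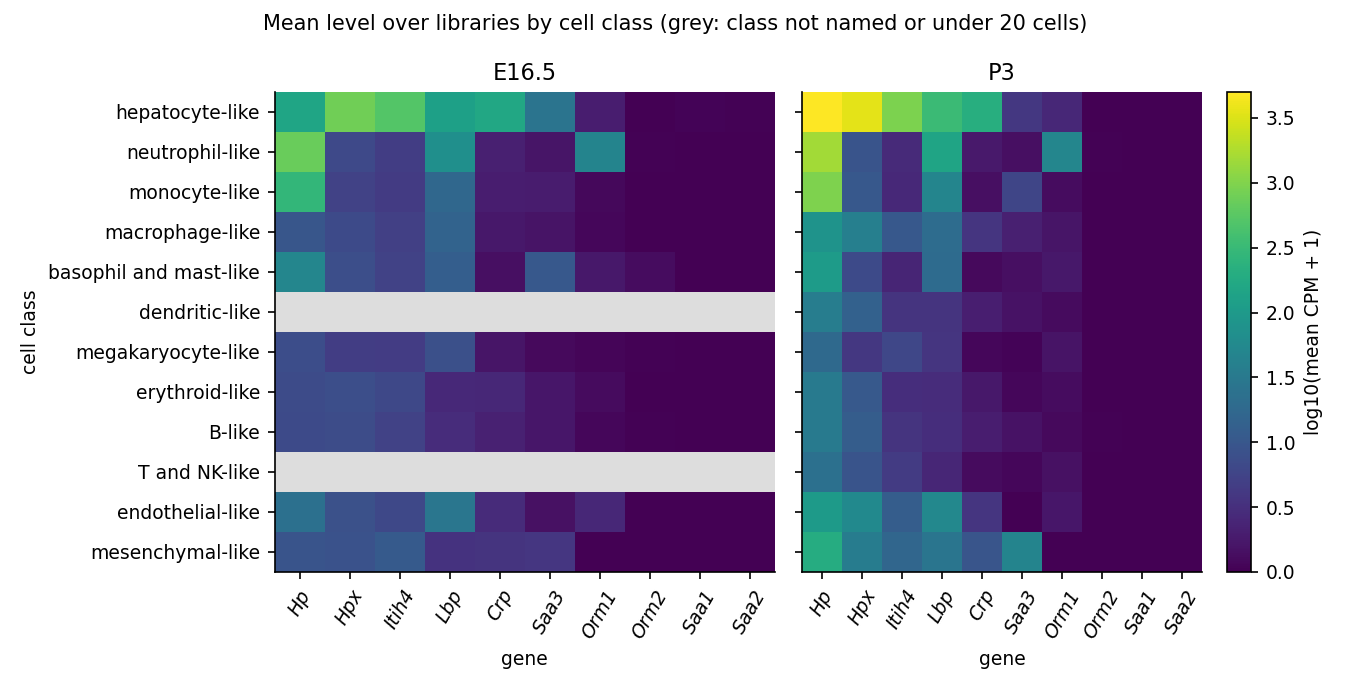
Mean level over libraries, as log10(mean CPM + 1) on the colour scale, of the 10 genes (columns) in 12 cell classes (rows) at E16.5 and P3, where grey marks a class not named at that stage or under 20 cells. Hp is highest in neutrophil-like cells at E16.5 and in hepatocyte-like cells at P3, and Orm1 stands out in neutrophil-like cells at both stages.

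Neutrophil-like cells had more Hp and Lbp per UMI at P3, and no change of Orm1 was called. In this class 50.3% of the genes tested were called. Hp measured 705, 519, 829, 885 and 684 CPM in the E16.5 libraries and 1441, 1806, 1477 and 1375 CPM in P3 libraries A to D, without overlap. The log2 fold change was 0.92 (adjusted p = 0.0033, SE 0.210, edgeR with Benjamini-Hochberg adjustment). Lbp measured 80.0, 66.9, 69.0, 67.0 and 60.7 CPM at E16.5 and 146, 122, 172 and 133 CPM at P3, again without overlap and the log2 fold change was 0.93 (adjusted p = 0.00028, SE 0.149, edgeR with Benjamini-Hochberg adjustment). Orm1 measured 40.4, 31.9, 53.5, 33.3 and 68.1 CPM at E16.5 and 56.6, 55.6, 43.0 and 38.1 CPM at P3. The P3 values all lay inside the E16.5 range, and the log2 fold change was -0.04 (adjusted p = 0.91, SE 0.257, edgeR with Benjamini-Hochberg adjustment). Erythroid markers made up 10.3% to 20.1% of the UMIs of neutrophil-like cells at E16.5 and 0.871% to 2.27% at P3, and their part in these changes was not tested.

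Within the neutrophil-like class, the levels of Hp, Lbp and Orm1 varied between clusters. Clusters led by the primary granule gene Elane had an Orm1 level of 2.85 ± 1.70 CPM at E16.5 (SD, n = 5) and 3.14 ± 2.35 CPM at P3 (SD, n = 4). The clusters led by Camp at E16.5 and by Chil3 at P3 had 81.4 ± 29.2 CPM and 73.8 ± 17.4 CPM. Camp encodes an antimicrobial peptide of the secondary granules. The other clusters had 49.8 ± 11.3 CPM (E16.5, led by Retnlg) and 82.1 ± 10.4 CPM (P3, led by Csta2), and the smaller P3 cluster led by Retnlg had 14.5 ± 10.3 CPM from 16 UMIs. Hp was present throughout. At E16.5 it was 415 ± 64.4 CPM in the Elane-led, 905 ± 177 CPM in the Camp-led and 837 ± 148 CPM in the Retnlg-led cluster. At P3 it was 972 ± 34.1 CPM in the Elane-led, 1727 ± 187 CPM in the Chil3-led, 2067 ± 300 CPM in the Csta2-led and 2548 ± 624 CPM in the Retnlg-led cluster. The Mpo-led P3 cluster, with 14.7% of its UMIs on erythroid markers, was lowest at 594 ± 35.4 CPM. The Retnlg-led P3 cluster also had an Hpx level of 111 ± 76.9 CPM, against means of 4.81 to 9.53 CPM in the other neutrophil-like P3 clusters. Itih4 (12.7 ± 7.28 CPM, from 16 UMIs) and Crp (6.94 ± 5.96 CPM, from 12 UMIs) were higher there as well. Their means in the other clusters were 0.352 to 2.88 CPM and 0.104 to 1.21 CPM. The part of hepatocyte RNA in these levels was not tested. Mean Lbp levels ran from 59.5 CPM (Retnlg-led) to 87.9 CPM (Camp-led) at E16.5. At P3 they ran from 75.1 CPM (Mpo-led) to 166 CPM (Chil3-led). These cluster levels are a description with no test.

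**Figure D4:**
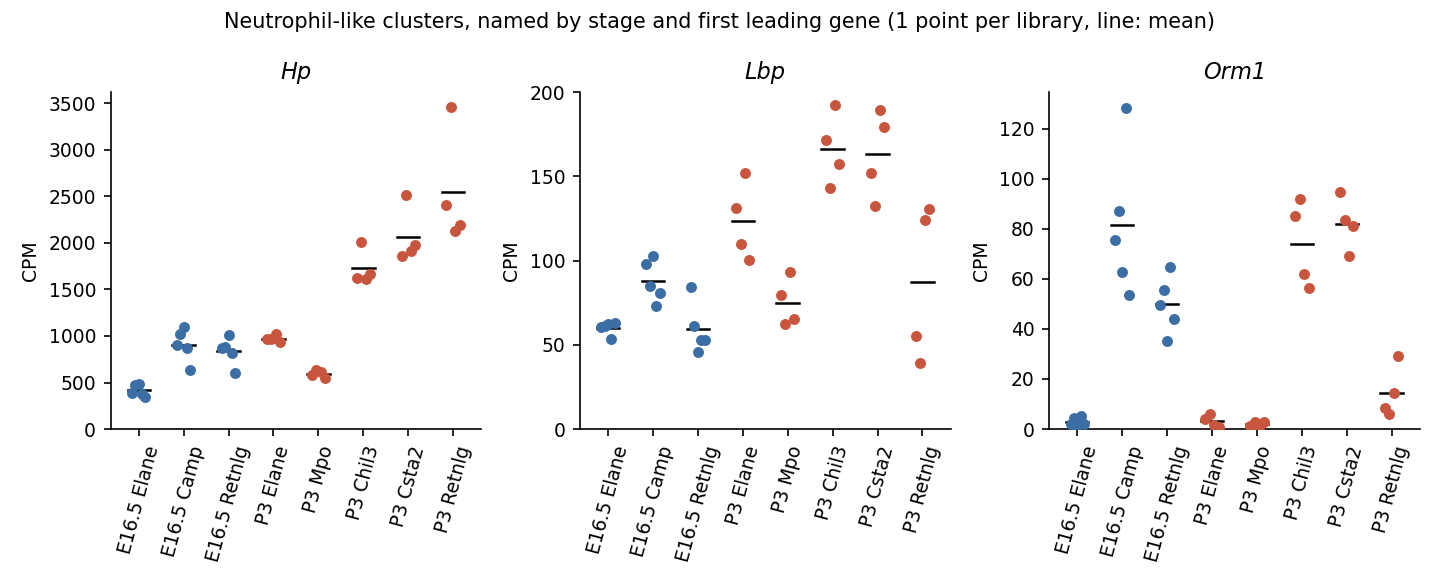
CPM of Hp, Lbp and Orm1 (vertical axes, linear) in each neutrophil-like cluster at E16.5 (blue, 5 libraries) and P3 (red, 4 libraries), named by stage and first leading gene, with 1 point per library and a line at the mean. Orm1 is between 2.00 and 3.14 CPM on average in the clusters led by Elane and Mpo and reaches 73.8 to 82.1 CPM in those led by Camp, Chil3 and Csta2.

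Over the 8 classes other than hepatocyte-like that could be tested between stages, 38 combinations of class and gene passed the filter and 22 were called, 16 higher and 6 lower at P3, by the quasi-likelihood test of edgeR with Benjamini-Hochberg adjustment. The background for these classes was 48.7%, with 24.2% higher and 24.5% lower. In single classes it was 51.3% in monocyte-like, 32.6% in endothelial-like, 53.6% in basophil and mast-like and 54.7% in megakaryocyte-like cells. Only 7 of the 22 exceeded the free-RNA level at both stages, and 10 exceeded it at neither. In monocyte-like cells Hp measured 284 ± 52.6 CPM at E16.5 and 951 ± 98.7 CPM at P3, and the log2 fold change was 1.59 (adjusted p = 1.2e-05, SE 0.176, edgeR with Benjamini-Hochberg adjustment). Lbp in the same cells measured 16.4 ± 3.72 CPM and 46.9 ± 13.1 CPM, and the log2 fold change was 1.39 (adjusted p = 0.00015, SE 0.211). The stages did not overlap for either gene. In the same cells the 11 neutrophil markers summed to 4186 to 7658 CPM at E16.5 against 11753 to 21240 CPM at P3, and erythroid markers made up 10.5% to 18.6% of UMIs at E16.5 against 0.285% to 0.587% at P3. The part of either in these rises was not tested.

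Lbp in endothelial-like cells measured 27.1 ± 5.45 CPM at E16.5 (SD, n = 5) and 70.1, 33.7, 72.5 and 32.0 CPM in P3 libraries A to D, from 10 to 40 UMIs each. Library D lay inside the E16.5 range of 20.7 to 32.3 CPM and B just above it, so that the stages overlapped. The log2 fold change of 0.76 was called (adjusted p = 0.036, edgeR with Benjamini-Hochberg adjustment), but the call was lost without the shared library (0.69), without Jag1Ndr/Ndr replicate 1 (0.68), without library A (0.47) and without library C (0.66). Hp in basophil and mast-like cells measured 49.4 ± 15.3 CPM and 106 ± 15.7 CPM and was called (log2 0.74, adjusted p = 0.0035, edgeR with Benjamini-Hochberg adjustment), but turned to -0.38 with finer clustering. The class held a different mix of cells at each stage. Its markers made up 0.957% of UMIs in 237 E16.5 cells and 0.227% in 1049 P3 cells, led also by Cd34. With finer clustering it held 1663 E16.5 cells (0.117%) and 144 P3 cells (2.32%). A P3 cluster of 969 cells led also by Cd34, most like stem and progenitor cells, was then left unnamed. The part of this mix in the change was not tested. Lbp in megakaryocyte-like cells fell from 7.14 ± 4.09 CPM to 2.70 ± 1.24 CPM, a log2 change of -1.27 close to the threshold (adjusted p = 0.049, edgeR with Benjamini-Hochberg adjustment), which was not called without Jag1+/+ replicate 1 (-0.96), Jag1Ndr/+ replicate 1 (-1.19), or any of P3 libraries A (-1.49), B (-1.38), C (-1.11) and D (-1.35).

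Saa3 was called lower in hepatocyte-like cells and higher in monocyte-like cells at P3. In monocyte-like cells it measured 0.775, 0.923, 0.837, 1.84 and 0.311 CPM at E16.5 and 7.83, 8.46, 1.36 and 1.97 CPM in P3 libraries A to D. Libraries A and B stood above all E16.5 libraries, while C, with 5 UMIs, lay inside the E16.5 range and D, with 4 UMIs, just above it. The log2 fold change was 2.36 (adjusted p = 0.0028, SE 0.537, edgeR with Benjamini-Hochberg adjustment), and with only libraries C and D it was 0.58 and not called. Hepatocyte-like cells held a median of 36.4% of the Saa3 UMIs at E16.5 and 4.92% at P3, and monocyte-like cells 2.75% and 34.4%. The numerous erythroid-like cells held a median of 33.8% at E16.5 (12.6% to 43.6%) and 8.39% at P3, at an E16.5 level of 0.693 ± 0.274 CPM (SD, n = 5). Basophil and mast-like cells of the shared library had 40.3 CPM from 48 UMIs, above every hepatocyte-like value, while this class had 0 to 6.61 CPM in the other E16.5 libraries. Mesenchymal-like cells of library C had a Saa3 level of 135 CPM, of which 15 UMIs came from 1 cell. All 18 Saa3 UMIs of this class at P3 were in 3 of the 42 cells with a UMI of the mesothelial markers Upk3b or Msln. The 56 P3 cells without such a UMI held 0. At E16.5 the 5 Saa3 UMIs of the class were all in cells without one.

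Since hepatocyte-like and neutrophil-like cells of a library share its handling, their ratio was also compared, in a test added after the levels of both classes were seen. Its p-values are therefore no independent support of the levels given above. Handling may also act unequally on these classes. Depth relative to the median of the library was 3.5 in hepatocyte-like cells at E16.5 and 0.5 at P3. In neutrophil-like clusters it was 1.24 to 2.46 and 0.524 to 3.2. The part of digestion and depth in the ratio was not tested. The log2 ratio of hepatocyte-like over neutrophil-like Hp, with 1 CPM added to both, was -2.40 ± 0.808 (SD, n = 5) at E16.5 and 1.65 ± 0.331 (SD, n = 4) at P3. It was negative in 5 of 5 E16.5 libraries and positive in 4 of 4 P3 libraries (two-sided exact permutation test, p = 0.0159, which is the smallest these groups allow, and 0.0317 after Benjamini-Hochberg adjustment over 4 tests). The same ratio of Lbp was 0.86 ± 0.306 and 1.19 ± 0.401, a difference of 0.32 (two-sided exact permutation test, p = 0.206, adjusted 0.275). The ratio of hepatocyte-like over monocyte-like Saa3 fell from 3.78 ± 0.300 to -0.72 ± 1.71 (two-sided exact permutation test, p = 0.0159, adjusted 0.0317). Saa3 in mesenchymal-like cells, compared over 3 P3 and 5 E16.5 libraries, gave a p of 0.536 in the exact permutation test, whose smallest possible value there was 0.0357.

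The genes whose levels most resembled 6 of the 10 over 22 profiles of class and stage were found by Pearson correlation of log2(CPM + 10), as a description. They placed Hpx beside Igfbp1 (r = 0.994), Apoc4 and Mat1a, Itih4 beside Proc (0.996), Masp2 and Agt, and Crp beside Slc2a2 (0.998), Proc and Gltpd2. Orm1 was most like Ankrd22 (0.994), Ceacam10 and BC117090. Hp was most like 1600014C10Rik (0.891), C1rl and Abcd2, and Lbp like Gstm1 (0.902), C1rl and Abcd2, so that Hp and Lbp shared 2 of their 3 nearest genes. Saa1, Saa2 and Orm2 stayed under 20 CPM in every profile and were not compared. Profiles of a stage share libraries.

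No difference of these genes between Jag1Ndr/Ndr and the other E16.5 libraries was detected. Of the 6 genes tested in hepatocyte-like cells, 0 were called between the 2 Jag1Ndr/Ndr libraries and the 3 others, by edgeR with Benjamini-Hochberg adjustment, and 0 had an unadjusted p under 0.05. DESeq2 called 0 of the 6 as well, and the background by edgeR was 0.0% of 11105 genes. Hp measured 156 ± 14.4 CPM in Jag1Ndr/Ndr (SD, n = 2) and 141 ± 91.2 CPM in the others (SD, n = 3), a log2 difference of 0.21 (SE 0.437), with both homozygous libraries inside the range of the others. The 6 log2 differences lay between -0.19 (Lbp) and 0.24 (Saa3). With 1 library left out, 7 of their values turned sign and 23 kept it, and some moved much further, as given at the end. In the other classes 0 of 36 combinations were called by edgeR and 0 by DESeq2, and the background was 0.0%. Only 1 had an unadjusted p under 0.05, Lbp in monocyte-like cells (log2 -0.57, SE 0.219, unadjusted p = 0.025, edgeR). The Lbp difference was negative in every class tested, from -0.98 in megakaryocyte-like to -0.10 in endothelial-like cells. The classes come from the same libraries and are no independent evidence. In neutrophil-like cells Hp differed by 0.19 (SE 0.310), Lbp by -0.15 (SE 0.192) and Orm1 by 0.24 (SE 0.352). In simulated data of this size, 46% of genes changed 2-fold and 98% of those changed 4-fold were recovered in hepatocyte-like cells. These data gave all genes the same spread, changed well-counted genes only and were adjusted over this class alone. The real test had gene-wise spread and adjusted over all classes, so these shares do not give its power. Differences near 4-fold could be missed too. Hamp, from the list of other positive acute phase genes, was not called at a log2 difference of 1.93 (SE 0.495, unadjusted p = 0.0040, edgeR).

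**Figure D5:**
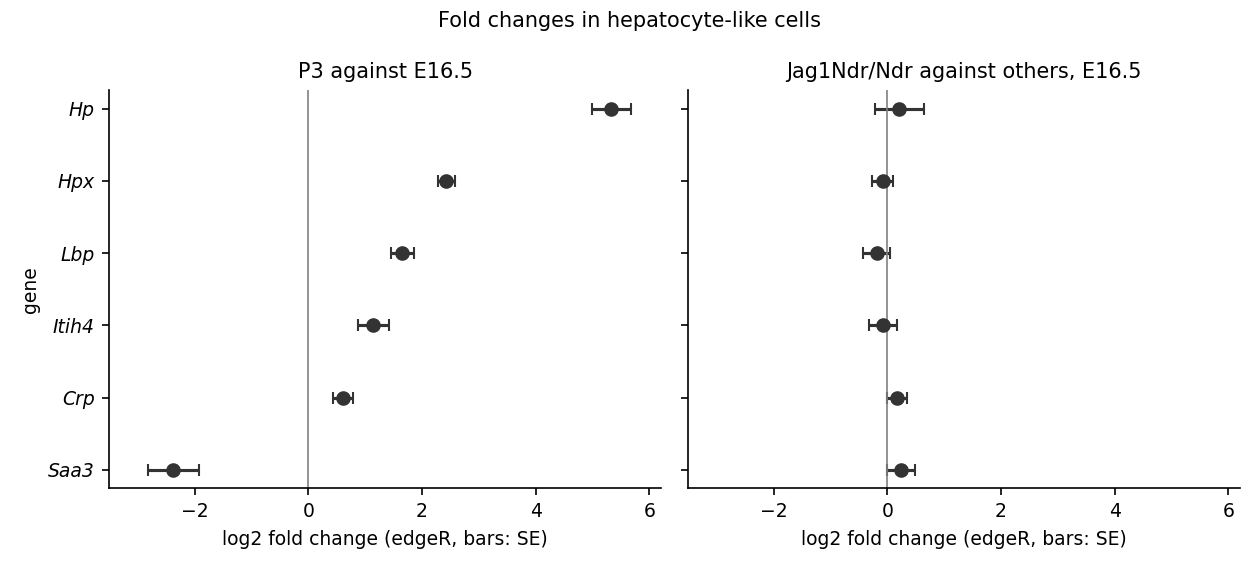
Log2 fold changes in hepatocyte-like cells (horizontal axis, edgeR, bars give the SE) of the 6 genes tested, for P3 against E16.5 (left, 4 against 5 libraries) and for Jag1Ndr/Ndr against the other E16.5 libraries (right, 2 against 3). The stage changes run from -2.37 (Saa3) to 5.33 (Hp), and the genotype differences from -0.19 to 0.24.

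At P3 the only libraries with unmixed labels were C (homozygous) and D (heterozygous), with 1 library each and hence no test. Of the 5 genes with at least 30 UMIs in hepatocyte-like cells, 0 differed by more than 2-fold, against 6.72% of 3287 genes. Hp measured 3297 CPM (95% exact Poisson interval 3123 to 3478) in C and 4521 CPM (4352 to 4695) in D, a ratio of 0.729. The ratio of C over D was 0.887 for Hpx, 0.982 for Itih4, 0.957 for Lbp and 1.21 for Crp. The intervals cover counting error only.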

How the data were processed

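Single-cell gene expression was measured in dissociated livers of 12 labelled samples with 10x droplets. The deposited matrices hold UMI counts per gene and barcode, not normalized by the authors. Their headers name 10x software 3.1.0 at E16.5 and 3.0.2 at P3, per the file headers, whereas Cell Ranger 2.1.1, R 4.1.2, Seurat and mm10 are named per the submitters' processing notes.

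Of the deposited count matrices, 2 were not used because their barcodes stood under other labels, and 1 pair was identical, leaving 9 libraries. Barcodes passed with 1000 or more UMIs and no more than 15% of them mitochondrial, and Scrublet removed 12.02% to 23.23% of them at an expected doublet share of 0.008 per 1000 barcodes, leaving 13218 to 22290 cells. Each stage was clustered with scanpy 1.11.5 (2000 variable genes, 30 components, 15 neighbours, Leiden at resolution 1) without the 10 genes. Counts were summed per class and library with at least 20 cells, and tested with edgeR 4.0.16 (quasi-likelihood, TMM, Benjamini-Hochberg over all genes and classes, threshold 0.05) in R 4.3.3. DESeq2 1.42.0, other filters, scalings and clusterings, and left-out libraries were the alternatives. Exact permutation tests used scipy 1.17.1.

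In simulated counts of the stage comparison in hepatocyte-like cells (9750 genes), 61% of 2-fold and 100% of 4-fold changes were recovered, with 7 false calls. They were made with the same simplifications as those of the genotype comparison and do not give the power of the real test. Intervals are exact Poisson at 95%, and floors stand for 3 counts. Both cover counting error only. Nothing in the labels says more of the samples than that there were 2 individuals per genotype and stage, so p-values measure the spread between these libraries. The genes and lists were chosen with earlier results of these data known. The text names all 10 genes, and of each list up to 4 with the smallest adjusted p-values between stages. Hamp was named in addition, for its genotype difference. The genes most like Saa3 in their levels are not reported here.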

Additional observations from a re-analysis of the deposited data

Results flagged for a closer look

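Both differences between classes below were tested after the levels that prompted them had been seen, and their p-values are no independent support. The change of Hp differed between hepatocyte-like and neutrophil-like cells. The log2 ratio of the classes was 4.04 higher at P3 than at E16.5, with all 4 P3 libraries above all 5 E16.5 libraries (two-sided exact permutation test, p = 0.0159, adjusted 0.0317 over 4 tests). The change of Saa3 differed between hepatocyte-like and monocyte-like cells, with a P3 minus E16.5 difference of -4.50 in the log2 ratio (two-sided exact permutation test, p = 0.0159, adjusted 0.0317), from 14 hepatocyte-like and 108 monocyte-like Saa3 UMIs at P3. With values at or near 0 in these classes, its size depends on the 1 CPM added to both. Lbp in megakaryocyte-like cells of P3 library C was 0.841 CPM, from 1 UMI, far below the other P3 libraries at 3.16, 3.35 and 3.45 CPM. It was the single value standing apart among 40 groups examined, of which chance would mark about 1 in 20.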

How the results depend on the processing

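In hepatocyte-like cells, 6 genes were called between stages under every alternative run except without TMM scaling, where 5 were (Crp was lost). In the other classes the count ranged from 17 to 24 around 22, and from 17 to 22 with 1 library left out. With the replicate number as a block, 6 genes and 21 combinations were called between stages, and 0 between genotypes. Deviations of same-numbered E16.5 libraries in hepatocyte-like cells correlated at 0.195, -0.0113 and 0.16. Those of differently numbered ones were the same values with the sign turned. Centring the Jag1Ndr/Ndr libraries on their own mean fixes this, so they are no comparison. Since 1 same-numbered pair was not above 0.1, the numbers were not taken to pair the libraries. The P3 libraries were not examined for this. The count of combinations of class, gene and stage above the free-RNA level was 28 of 200, 34 with doublets kept and 20 at a factor of 5. Hp in basophil and mast-like cells turned to -0.38 at clustering resolution 2, and Itih4 in macrophage-like cells to -0.20 with clusters mixed with erythroid RNA kept, a setting added after seeing the data. Orm1 in neutrophil-like cells, not called, turned to 0.079 without TMM and 0.0060 with the mixed clusters kept, and ranged from -0.18 to 0.14 with 1 library left out. Between genotypes in hepatocyte-like cells, none of the genes was called in any setting, and leaving out 1 library gave ranges of -0.16 to 0.77 for Hp, -0.21 to 0.031 for Hpx, -0.28 to 0.073 for Itih4, -0.61 to 0.14 for Lbp and -0.051 to 0.49 for Saa3. Over all combinations of gene and class, 0 were called between genotypes by edgeR, 14 by DESeq2 and 422 by edgeR without a filter on low counts. With 1 library left out, edgeR called 69 without Jag1Ndr/Ndr replicate 2, 11 without Jag1+/+ replicate 1 and 4 without Jag1Ndr/Ndr replicate 1, and 0 without either of the others. The causes were not tested. Depth limited Saa3, Orm1, Saa1, Saa2 and Orm2 most, with 14 and 5 UMIs of the first pair in P3 hepatocyte-like cells.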
